A study of Schizosaccharomyces pombe with 15 samples.

Results

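Ends of U6 small nuclear RNA that carry no U directly after the U6 body were examined in fission yeast, Schizosaccharomyces pombe. They were all lines of the deposited end tables whose sequence is not blank and does not start with T, the DNA letter that stands for U. There were 5323 such lines out of 111582 over 19 files, or 2722 distinct sequences of 77768, and they held 71383 of 22706490 reads with an end sequence (0.314%). Ends made of As alone (17 distinct sequences) held 35.2% of these reads, ends that start with A and hold other bases held 49.2%, and ends that start with C, G or an unread base (N) held 15.7%. The choice used the letters of each end and no read count. The ends came from 3′ RACE, in which an adapter is ligated to the 3′ ends of total RNA and U6 is amplified and sequenced from it.

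The 15 libraries came from log-phase cells in YES medium at 30 °C, with 1 library for each strain or treatment. RNA was treated with polynucleotide kinase (PNK) before ligation unless stated. Deletion strains with untagged U6 were mpn1Δrrp6Δ, cid14Δmpn1Δ, mpn1Δ, rrp6Δ, cid14Δ, cid11Δ, cid12Δ and cid16Δ. The rrp6Δ strain was also sequenced without PNK, as was wt, and wt with PNK served as their reference. In 4 further strains a tagged U6 copy stood beside the endogenous gene: mpn1Δ tU6-C36A, tU6-C36A, mpn1Δ tU6wt and tU6-wt. Each of these had 1 file for tagged and 1 for endogenous U6. The labels do not describe the tag, its promoter or the position from which C36A is counted.

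RNA polymerase III ends U6 in a run of Us, and nucleases and nucleotidyltransferases then reshape that run. Mpn1, the fission yeast relative of human USB1, is an exoribonuclease that trims U6 and leaves a phosphate at its 3′ end, which PNK can remove. Rrp6 is the nuclear 3′-5′ exoribonuclease that works with the exosome. Cid14 is the noncanonical poly(A) polymerase of the TRAMP complex, which adds short A tails to nuclear RNAs that the exosome degrades. Cid11, Cid12 and Cid16 belong to the Cid1 family of nucleotidyltransferases, whose best known members add Us to RNA ends.

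The place of the ends is shown here by the second exon of snu6 and the bases after it, from RefSeq's ASM294v3 assembly, minus strand, I:2562254-2562323. The encoded T run is in capitals and the A before it (position 2562275) is read here as the last base of the body. The snu6 gene, with 2 exons, spans I:2562276-2562419 in the annotation, so that this A and the run of 9 Ts at I:2562266-2562274 lie just past its annotated end.
snu6 exon 2, the A and the T run: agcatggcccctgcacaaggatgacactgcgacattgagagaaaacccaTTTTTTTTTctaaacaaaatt
A line with no base listed is read here as an end at that A and called a bare end. An end with no U carries another base at the place of the first T. The ends printed next each led their class in the strains with tagged U6. All their letters are bases after the body, 5′ to 3′, and are in capitals for that reason.
commonest A-first mixed end of tagged U6 in tU6-wt: AATAAAATT
commonest A-first mixed end of endogenous U6 in tU6-wt: AAAAAAAATAAAT
commonest end of As alone of tagged U6 in tU6-C36A: AAAAAAAAA
In untagged strains the commonest members were shorter: a single A, AA, AT, C, CA and CTTTT.

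Depth was 408281 to 3966962 reads with an end sequence per file, and a count of 0 allows a share of up to 7.56e-05% to 0.000735% (3 counts). Bare ends held 0.112% to 6.78% of all reads. Exact Clopper-Pearson 95% intervals are given for single libraries and cover counting error only, since amplified reads without molecular identifiers are not independent molecules. Unread bases split the libraries. Reads holding an N made up at most 0.000142% in 7 untagged libraries, called the no-N set here, and 0.0217% to 0.0244% in cid11Δ, cid12Δ, cid16Δ and wt without PNK. In tagged strains they made up 0.00249% to 0.00598%. No batch is named by the labels. In comparisons of those 4 libraries with PNK-treated wt, the set cannot be told apart from the deletion or the missing PNK. With 1 library a group there is no replicate check of a single comparison, so 2-fold was used as a limit of size and no test was made.

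Among untagged strains, ends of As alone took 0.143% of reads in mpn1Δrrp6Δ, 0.0629% in cid14Δmpn1Δ, 0.0808% in mpn1Δ, 0.173% in rrp6Δ, 0.171% in cid14Δ, 0.0428% in cid11Δ, 0.0562% in cid12Δ, 0.0560% in cid16Δ and 0.163% in wt. Without PNK they took 0.261% in rrp6Δ and 0.441% in wt. The wt library without PNK thus stood highest of the 11, and the Cid1-family deletions and cid14Δmpn1Δ lowest. Ends that start with A and hold other bases ranged over 0.0386% to 0.376% in the same libraries, and ends that start with C, G or N over 0.0132% to 0.387%. A first C was far commoner than a first G: 0.354% against 0.0332% in cid14Δ and 0.139% against 0.0163% in wt. An N came first in 1 read of cid12Δ, in 3 reads of cid16Δ and in no read of the other untagged libraries. The number of distinct ends in a file was 3 to 16 for As alone, 54 to 693 for A-first mixed ends and 47 to 196 for C, G or N first. Of these distinct ends, 0% to 26.7%, 42.3% to 73.5% and 43.0% to 74.4% were seen in 1 read only, in the same order. The median length of an end was 1 to 3 bases, 5 to 6 bases and 1 to 6 bases in these classes.

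**Figure D1:**
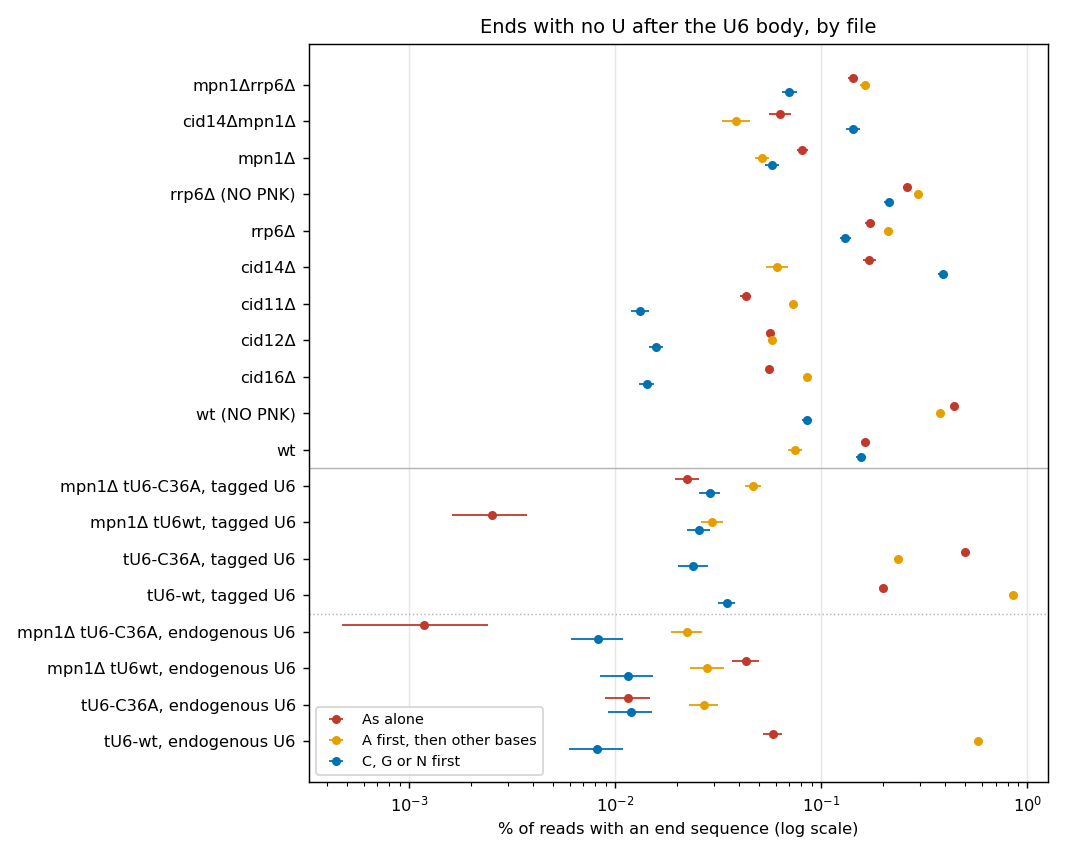
Share of reads (%, log scale) in the 3 classes of ends with no U, for each of 19 files, with exact 95% intervals. Files of untagged strains lie above the solid line, tagged U6 above the dotted line and endogenous U6 of tagged strains below it. The cid14Δ library has the highest share of C, G or N first (0.387%), and ends of As alone fall to 0.00118% in endogenous U6 of mpn1Δ tU6-C36A.

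Without cid14 the single A remained and longer A tails were scarce. Ends with 2 or more As numbered 41 reads in cid14Δ (37 AA, 2 of 3 As and 2 of 4 As), against 537 reads in wt, where tails ran to 16 As. Set against bare ends, that was 1.26 per 1000 bare ends in cid14Δ (95% interval 0.901 to 1.70) and 18.8 in wt (17.2 to 20.5), or 0.0668 times the wt value in cid14Δ. Tails of 5 or more As had 0 reads in cid14Δ, against 152 in wt. The single A had 22.2 reads per 1000 bare ends in cid14Δ and 30.4 in wt. The whole class of As alone had 23.4 reads per 1000 bare ends in cid14Δ and 49.2 in wt, 2.10-fold lower. As a share of reads it stood at 0.171% in cid14Δ and 0.163% in wt, beside bare ends at 6.78% and 3.22% of all reads. Single As made up 94.6% of it in cid14Δ and 61.8% in wt.

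Longer tails were also scarce where mpn1 was deleted too, in 2 libraries that are not shared with the first pair. Tails of 2 or more As had 13 reads in cid14Δmpn1Δ, or 1.09 per 1000 bare ends (0.580 to 1.86), against 384 reads or 32.9 per 1000 (29.6 to 36.4) in mpn1Δ, 30.2-fold lower in the double deletion. Tails of 5 or more As had 0 reads in cid14Δmpn1Δ and 97 in mpn1Δ. Single As had 22.1 per 1000 bare ends in cid14Δmpn1Δ and 47.3 in mpn1Δ. The values of both cid14 deletions lay within each other's intervals for single As and for longer tails. In the plot of A-tail lengths both lines end at 4 As or before.

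**Figure D2:**
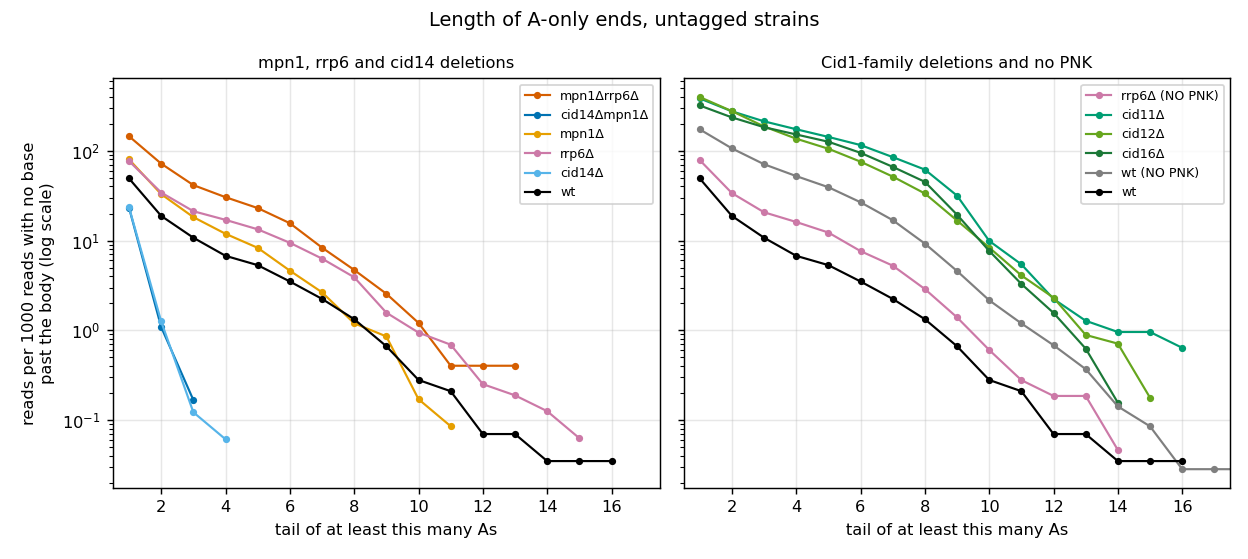
Reads with a tail of at least the given number of As (x axis), per 1000 bare ends (y axis, log scale), in 11 untagged libraries over 2 panels, with wt in both. Lines stop where no read is left: at 4 As in cid14Δ, at 3 As in cid14Δmpn1Δ and at 16 As in wt. The axis ends before the longest tail of wt without PNK, 23 As.

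Tails that hold both As and Gs and no other base were nearly absent in the same libraries. This kind of end was singled out after its values were seen. It had 2 reads in cid14Δ and 96 in wt, or 0.0613 (0.00742 to 0.221) and 3.36 (2.72 to 4.11) per 1000 bare ends. It had 2 reads in cid14Δmpn1Δ and 48 in mpn1Δ, or 0.168 and 4.11 per 1000 bare ends. With so few reads the ratio in the cid14 deletions is known only within those intervals. Most of these tails held a single G, in 89.6% of their reads in mpn1Δ and 84.4% in wt. Their share among tails of 2 or more As or Gs was 11.1% in mpn1Δ and 15.2% in wt. It was 13.3% in cid14Δmpn1Δ and 4.65% in cid14Δ, on 2 reads each, so a loss beyond that of all longer tails is not shown.

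Ends of As followed by 1 to 3 Us were also scarcer without cid14. They had 53 reads in cid14Δ and 220 in wt, or 1.62 and 7.71 per 1000 bare ends, 4.75-fold lower in cid14Δ. In cid14Δmpn1Δ there were 31 and in mpn1Δ 213, or 2.60 and 18.2 per 1000 bare ends. Of the 53 reads in cid14Δ, 1 carried more than a single A before the Us. Among all tails of As with or without these Us, 6.48% ended in Us in cid14Δ and 13.5% in wt.

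Bare ends themselves were commoner without cid14, at 6.78% of all reads in cid14Δ against 3.22% in wt and 2.64% in cid14Δmpn1Δ against 0.998% in mpn1Δ. Ends that start with C, G or N were also commoner, at 0.387% in cid14Δ against 0.155% in wt (2.50-fold) and 0.142% in cid14Δmpn1Δ against 0.0577% in mpn1Δ (2.47-fold). The end CA had 389 reads in cid14Δ and 158 in wt, 4.72-fold higher as a share of reads, and CCA had 83 and 49 reads, 3.24-fold higher. CA had 119 reads in cid14Δmpn1Δ and 66 in mpn1Δ, 4.75-fold higher. Per 1000 bare ends the sum of C, CA and CCA was 36.9 in cid14Δ and 31.4 in wt, and 34.5 in cid14Δmpn1Δ and 29.3 in mpn1Δ, which is 1.18-fold in both pairs. Of 10 members common enough to be compared between cid14Δ and wt (a mean of at least 50 per 1000000 reads), 4 were at least 2-fold higher, all with C or G first, and AA and AAA were at least 2-fold lower. Over all 99 ends compared, 27.3% were that much higher and 15.2% that much lower. Between cid14Δmpn1Δ and mpn1Δ, 2 of 5 members were higher (C and CA) and 1 was lower (AA, 11 and 171 reads), and the next lowest was ATTTTTA (20 and 74 reads, 0.712-fold as a share), beside 20% and 21% of all 105 ends.

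**Figure D3:**
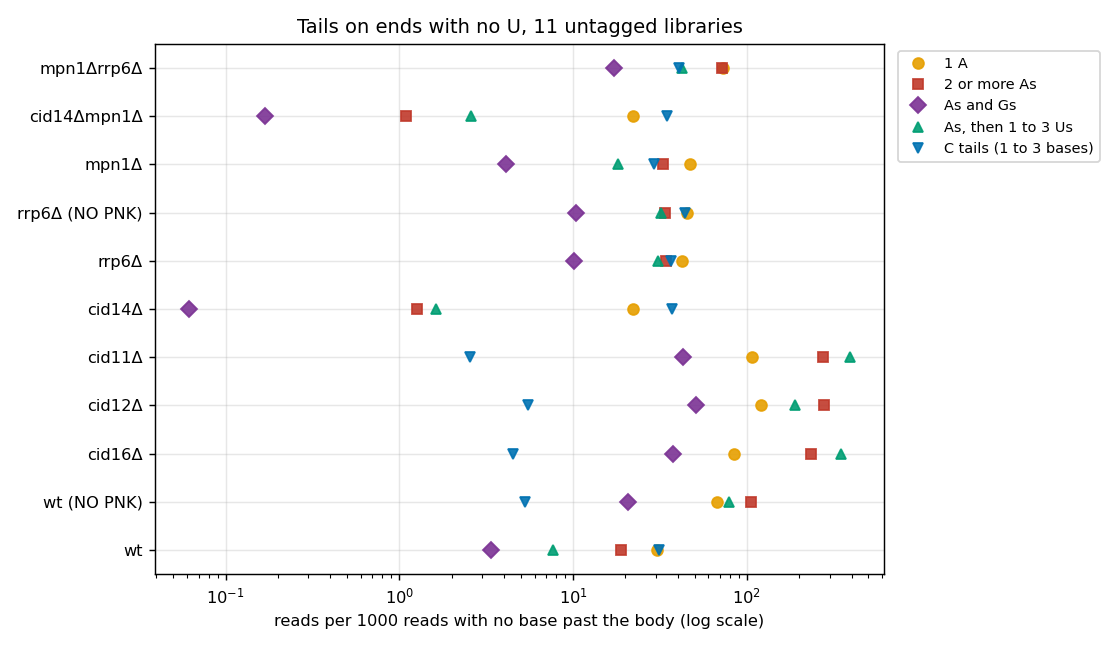
Reads of 5 kinds of tail per 1000 bare ends (log scale) in the 11 untagged libraries. C tails are the sum of C, CA and CCA. Tails of 2 or more As lie at 1.09 and 1.26 in the cid14 deletions and at 18.8 to 276 in the other libraries, and C tails lie at 2.56 to 5.51 in cid11Δ, cid12Δ, cid16Δ and wt without PNK.

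The A tail was set beside that of ends with 1 or more Us in the same library, as the share of ends with a given number of Us that carry As alone behind them. With no U, the share was 2.29% in cid14Δ and 4.69% in wt, and 2.27% in cid14Δmpn1Δ and 7.43% in mpn1Δ. With 5 Us it was 4.44% in cid14Δ and 2.48% in wt, and 84.7% in cid14Δmpn1Δ and 87.4% in mpn1Δ. Tails of 2 or more As were also scarcer in cid14Δ than in wt on ends with 1 to 4 Us. With 1 U they had 0.0326% of ends in cid14Δ and 0.547% in wt, and with 4 Us 0.362% in cid14Δ and 0.908% in wt. With 5 Us the values were 0.110% in cid14Δ and 0.119% in wt, so that the 2 libraries stood close together there. With 6 Us the order was turned, at 0.306% in cid14Δ and 0.283% in wt, as it was with 7 Us (0.387% and 0.219%) and with 8 Us (1 read in cid14Δ and 0 in wt). Between cid14Δmpn1Δ and mpn1Δ the share was lower in the double deletion at every number of Us up to 8, with 3.85% and 7.41% at 5 Us.

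**Figure D4:**
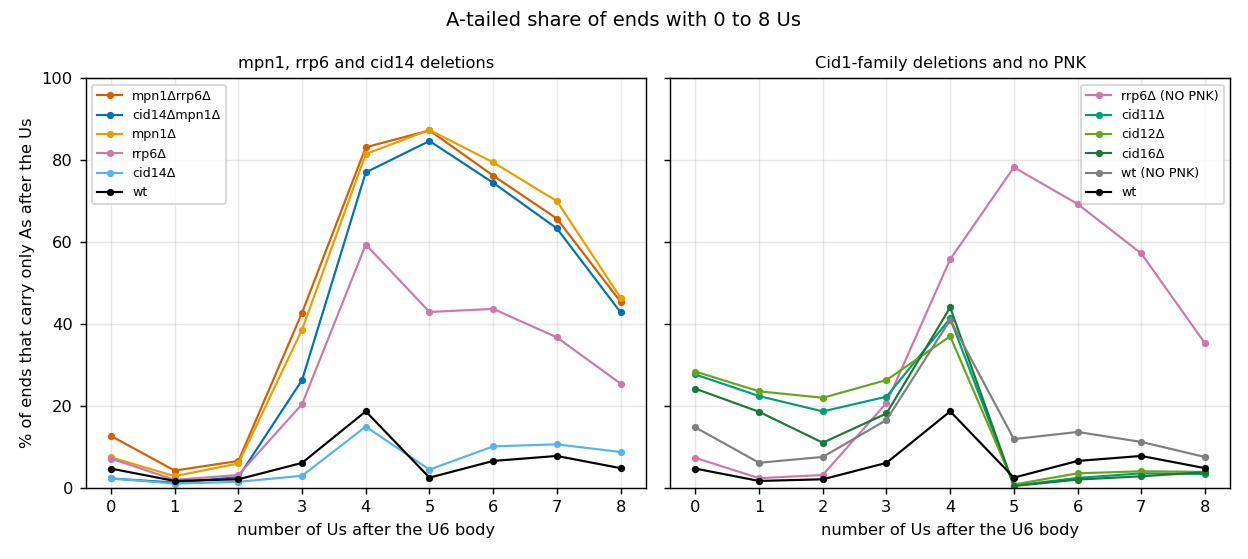
Share of ends (%) that carry As alone behind 0 to 8 Us, with 0 standing for the bare body, in 11 untagged libraries over 2 panels. At 0 Us the shares run between 2.27% and 28.4%, and at 5 Us they reach 87.4% in mpn1Δ and stay below 1% in cid11Δ, cid12Δ and cid16Δ.

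Without rrp6 the mixed A tails stood above wt by more than the pure ones. Ends of As alone took 0.173% of reads in rrp6Δ and 0.163% in wt, whereas ends that start with A and hold other bases took 0.211% and 0.0744%, 2.83-fold higher in rrp6Δ. A tails with Gs had 10.1 reads per 1000 bare ends in rrp6Δ (8.63 to 11.8) and 3.36 in wt, 3.01-fold higher. As followed by 1 to 3 Us had 31.0 per 1000 bare ends in rrp6Δ (28.3 to 33.9) and 7.71 in wt, 4.02-fold higher. Tails of 2 or more As had 34.3 in rrp6Δ and 18.8 in wt, 1.82-fold higher, which is within the limit of 2-fold used here for single libraries. The end ATT had 69 reads in rrp6Δ and 18 in wt (4.67-fold), and ATTTTT had 94 and 50 (2.29-fold). The named ends furthest below wt were AAA, with 67 reads in rrp6Δ and 114 in wt (0.715-fold), and C, with 409 and 688 (0.724-fold). In rrp6Δ 3 of 12 members were at least 2-fold higher than in wt and 0 were lower, beside 36.9% and 8.11% of all 111 ends.

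In cells without mpn1 the rrp6 deletion gave higher values of the same kinds of mixed A tail. In mpn1Δrrp6Δ and mpn1Δ, A-first mixed ends took 0.163% and 0.0514% of reads (3.17-fold), A tails with Gs 17.2 and 4.11 per 1000 bare ends (4.19-fold), and As followed by 1 to 3 Us 42.3 and 18.2 per 1000 (2.32-fold). Tails of 2 or more As had 71.9 per 1000 bare ends in mpn1Δrrp6Δ and 32.9 in mpn1Δ, 2.19-fold higher. Bare ends held nearly the same share of reads, 0.973% in mpn1Δrrp6Δ and 0.998% in mpn1Δ. The end AT had 85 reads in mpn1Δrrp6Δ and 24 in mpn1Δ (5.43-fold) and AA had 226 and 171 (2.03-fold), while CA had 39 and 66 (0.906-fold as a share). C, with 244 and 271 reads, was 1.38-fold higher as a share, and AAA took 0.0108% in mpn1Δrrp6Δ and 0.00638% in mpn1Δ, so both stood above mpn1Δ here but below wt in rrp6Δ. Of 10 members compared, 4 were at least 2-fold higher and 0 lower, beside 13.2% and 4.13% of all 121 ends.

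Ends of As alone took 0.0808% of reads in mpn1Δ and 0.163% in wt, 2.02-fold lower in mpn1Δ, and bare ends took 0.998% and 3.22% of all reads, 3.22-fold lower. Per 1000 bare ends, ends of As alone were therefore higher, at 80.2 in mpn1Δ (75.0 to 85.7) and 49.2 in wt (46.6 to 51.9), 1.63-fold. As followed by 1 to 3 Us had 18.2 per 1000 bare ends in mpn1Δ and 7.71 in wt, 2.37-fold higher. The end C had 271 reads in mpn1Δ and 688 in wt and CA had 66 and 158, 3.43-fold and 3.23-fold lower as shares. AAA had 74 and 114 reads and AA 171 and 230. Of 5 members compared, 0 were at least 2-fold higher and 4 were lower, beside 43.6% and 32.7% of all 110 ends.

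The mpn1 deletion could be tested over 5 backgrounds: wt, rrp6Δ, cid14Δ and endogenous U6 of tU6-wt and of tU6-C36A. The share of ends of As alone was lower without mpn1 in 5 of 5 pairs. Log2 differences were -1.02 in the wt background, -0.28 in rrp6Δ, -1.44 in cid14Δ, -0.43 in tU6-wt and -3.30 in tU6-C36A (7 and 65 reads). Their mean was -1.29 ± 1.21 (SD, n = 5 pairs), with p = 0.0625 in a two-sided exact sign-flip test, the smallest p that 5 pairs can give, and an adjusted p of 0.104 over 5 outcomes. A-first mixed ends were lower in 5 of 5 pairs (mean log2 -1.24 ± 1.75, exact p = 0.0625, adjusted 0.104) and bare ends in 5 of 5 (-1.45 ± 0.45, exact p = 0.0625, adjusted 0.104). Ends that start with C, G or N were lower in 4 of 5 pairs (-0.76 ± 0.80, exact p = 0.125, adjusted 0.156). The ratio of ends of As alone to bare ends was higher in 3 of 5 pairs (0.19 ± 0.84, exact p = 0.625, adjusted 0.625). Its direction turned with ends of at least 10 reads (mean -0.026, exact p = 0.9375) and with tails of 2 or more As (-1.61, exact p = 0.4375). In endogenous U6 of mpn1Δ tU6-C36A no end of As alone reached 10 reads, so 3 counts were used in place of 0. Tails of 2 or more As had 1 read each in endogenous U6 of mpn1Δ tU6wt and mpn1Δ tU6-C36A, against 316 and 29 with mpn1. Per 1000 bare ends, such tails were higher without mpn1 in the wt and rrp6Δ pairs and lower in the cid14Δ pair. None of the 5 outcomes passed the threshold of 0.05, which 5 pairs cannot reach. Without the tU6-C36A pair the mean for ends of As alone was -0.79, and without the tU6-wt pair that for A-first mixed ends was -0.46.

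Taken as groups, 5 libraries without mpn1 and 8 libraries with it overlapped in every outcome. Ends of As alone ranged over 0.00118% to 0.143% of reads without mpn1 (median 0.0629%) and 0.0115% to 0.173% with it (median 0.0571%). Their two-sided exact permutation p was 0.432 (adjusted 0.777 over 5 outcomes), and it was 0.466 for the ratio to bare ends, 0.183 for A-first mixed ends, 0.985 for C, G or N first and 0.996 for bare ends. Strains in each group also differ in other genes, so each p-value sets mpn1 against differences between strains. The groups also differ in set, since cid11Δ, cid12Δ and cid16Δ, with bare ends at 0.112% to 0.175%, all stand in the group with mpn1. This test does not use the matched pairs, so its p-values do not show that mpn1 makes no difference. Without endogenous U6 of mpn1Δ tU6-C36A the log2 difference in ends of As alone was 0.15 (exact permutation p = 0.881), against -1.05 with it. Without mpn1Δrrp6Δ the difference in A-first mixed ends was -1.47 (exact permutation p = 0.0283, not adjusted), against -1.01 with it. Within 6 PNK-treated libraries of the no-N set, the log2 difference in the ratio to bare ends was 0.54 (exact permutation p = 0.6), against -1.03 over all 13 libraries. The smallest p that 3 against 3 libraries can give is 0.1.

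The deletions of the Cid1-family genes cid11, cid12 and cid16 had few bare ends, 0.112%, 0.142% and 0.175% of all reads, against 3.22% in wt. Of the ends with no U, bare or with As alone, 27.7% carried As in cid11Δ, 28.4% in cid12Δ and 24.2% in cid16Δ, against 4.69% in wt. Ends of As alone numbered 383 per 1000 bare ends in cid11Δ (358 to 409), 396 in cid12Δ (377 to 416) and 319 in cid16Δ (304 to 336), against 49.2 in wt (46.6 to 51.9). As a share of all reads they were lower than in wt, at 0.0428%, 0.0562% and 0.0560% against 0.163%. The tails were longer than in PNK-treated wt, with a median of 3 As in cid11Δ, 2 in cid12Δ and 3 in cid16Δ, against 1. In wt without PNK, of the same set as these deletions, the median was 2. Tails of 5 or more As made up 37.3% of these ends in cid11Δ, 26.6% in cid12Δ and 39.5% in cid16Δ. They made up 10.8% in wt and 22.7% in wt without PNK.

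As followed by 1 to 3 Us were as common as As alone in cid11Δ and cid16Δ. They had 1234 reads in cid11Δ, 1060 in cid12Δ, 2216 in cid16Δ and 220 in wt, or 50.8%, 32.2%, 52.1% and 13.5% of the A tails with or without such Us. The intervals of cid11Δ (48.8% to 52.8%) and cid16Δ (50.6% to 53.6%) overlapped, and that of cid12Δ (30.6% to 33.9%) lay below both. In cid16Δ the end AT had 501 reads (0.0137% of reads), against 66 in wt (0.00768%). It had 180 reads in cid11Δ (0.00644%) and 192 in cid12Δ (0.00484%). A tails with Gs had 42.8 per 1000 bare ends in cid11Δ, 50.9 in cid12Δ and 37.6 in cid16Δ. They had 3.36 in wt and 20.7 in wt without PNK.

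The library of wt without PNK belongs to the same set as these 3 deletions. Its ratios to bare ends lay between theirs and those of PNK-treated wt, while its shares of reads were the highest of these libraries both for As alone (0.441%) and for A-first mixed ends (0.376%). It had 173 ends of As alone per 1000 bare ends (169 to 178), and 31.3% of its A tails ended in 1 to 3 Us. Against that library the log2 difference in the ratio was 1.14 in cid11Δ, 1.19 in cid12Δ and 0.88 in cid16Δ, with PNK treatment then differing between the libraries compared. All 3 deletions had tails of 2 or more As at 235 to 276 per 1000 bare ends, against 18.8 in wt and 106 in wt without PNK. Of 8 members compared with PNK-treated wt in each case, 0 were at least 2-fold higher, and 5 were lower in cid11Δ, 4 in cid12Δ and 5 in cid16Δ. Over all ends compared, 6.82%, 21.4% and 8.99% were higher and 61.4%, 42.7% and 60.7% lower in cid11Δ, cid12Δ and cid16Δ. The lowest were C, with 7, 26 and 26 reads in cid11Δ, cid12Δ and cid16Δ against 688 in wt, and CA, with 1, 4 and 3 against 158. The member furthest above wt was CTTTT in each, at 1.91-fold in cid11Δ, 1.82-fold in cid12Δ and 1.86-fold in cid16Δ. The next highest member was AT in cid11Δ (0.838-fold) and cid16Δ (1.79-fold) and the 5-base run of As in cid12Δ (0.695-fold, on 167 and 52 reads).

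The libraries without and with PNK differed in other ways in wt than in rrp6Δ. In wt they also belong to different sets, so PNK and set cannot be told apart there. In wt, ends of As alone took 0.441% of reads without PNK and 0.163% with it, 2.70-fold higher, and A-first mixed ends took 0.376% and 0.0744%, 5.06-fold higher. Per 1000 bare ends, tails of 2 or more As had 106 reads without PNK (103 to 110) and 18.8 with it. As followed by 1 to 3 Us had 79.1 reads per 1000 bare ends without PNK and 7.71 with it, 10.3-fold higher. The end AAAATT had 149 reads without PNK and 6 with it, and ATT had 360 and 18. C had 88 and 688 reads, 12.6-fold lower without PNK as a share, and CA had 91 and 158, 2.79-fold lower. Of 20 members compared, 17 were at least 2-fold higher without PNK and 2 were lower, beside 71.6% and 13.5% of all 148 ends.

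In rrp6Δ, where both libraries belong to the no-N set, ends of As alone had 78.7 reads per 1000 bare ends without PNK (74.9 to 82.7) and 76.8 with it (72.4 to 81.4). The tails of 2 or more As (33.8 and 34.3), the A tails with Gs (10.3 and 10.1) and the As followed by 1 to 3 Us (32.2 and 31.0) also lay within each other's intervals. As shares of all reads the classes were 1.39-fold to 1.62-fold higher without PNK, and bare ends were 1.46-fold higher, at 3.20% against 2.20%. The ends AAAT, with 54 and 21 reads, and AAT, with 51 and 25, were more than 2-fold higher as shares. ATTTTT, with 55 and 94 reads, and ATTTT, with 39 and 46, were the furthest below. Of 22 members compared, 3 were at least 2-fold higher without PNK and 0 lower, beside 14.6% and 5.11% of all 137 ends.

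The bases behind the leading As were counted to show what the A-first mixed ends share. In the 11 untagged libraries 9305 reads were As followed by 1 to 3 Us, 2579 were As followed by 4 or more Us, and 909 and 604 were As, then 4 or more or 1 to 3 Us, then As again. Ends of the second kind that carry 1 A differ by 1 base from ends of Us alone. ATTTT had 14 reads in cid14Δ and 25 in wt, beside 186427 and 472549 reads of the end of 5 Us. It had 165, 201 and 222 reads in cid11Δ, cid12Δ and cid16Δ, beside 2406973, 3122952 and 3081469. In rrp6Δ it had 39 reads without PNK and 46 with it, beside 53974 and 198067. Whether these are U6 ends with an A in the first place or misread Us was not tested. A further 310 reads were ends of 18 bases or more, 5 started with the adapter, and the remaining 5219 reads of other make-up include the A tails with Gs.

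Of the reads with C, G or N first, C, CA and CCA held 51.1% to 69.3% in the no-N set. They held 2.17% to 15.9% in cid11Δ, cid12Δ, cid16Δ and wt without PNK, and 0% to 4.26% in files from tagged strains. A first base followed by Us alone held 3.34% to 9.12%, 42.6% to 84.3% and 25.5% to 73.9% in the same order. These groups were formed after the values were seen. In the 7 libraries of the no-N set, C alone had 21.0 to 32.8 reads per 1000 bare ends, against 2.82 to 13.2 per 1000 ends with 1 to 7 Us and nothing else. CA had 5.25 to 11.9 per 1000 bare ends, against 4.37 to 26.0 after 1 to 7 Us, and CCA had 0.428 to 3.52 against 0.582 to 5.04. In cid11Δ, cid12Δ, cid16Δ and wt without PNK, C had 2.24 to 4.62 per 1000 bare ends and 0.875 to 19.8 after 1 to 7 Us, so that there it reached higher values on some ends with Us than on bare ends. In files from tagged strains C had 0 to 0.595 per 1000 bare ends and 0 to 92553 per 1000 ends with 1 to 7 Us. In endogenous U6 of these strains plain ends of 4 Us had 47 to 218 reads, and 4 Us followed by C had 3733 to 17979. Those endogenous U6 files also enter the mpn1 pairs and the comparison of tagged with endogenous U6. The ranges of C on bare ends in these 3 sets did not overlap, and the part of the set in them was not tested. C followed by 4 Us (CTTTT) had 217, 294 and 276 reads in cid11Δ, cid12Δ and cid16Δ, against 35 in wt, beside the same numbers of 5-U ends. Within the untagged libraries, 95 reads of this class matched the start of the ligated adapter and 643 more matched it with 1 mismatch. Leaving both out moved none of the untagged comparisons of this class across the 2-fold limit. A match needed at least 4 bases, so C, CA and CCA were always kept. Whether those short ends come from the adapter was not tested.

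Ends of 18 bases or more with no U first numbered 620 sequences and 1175 reads over all files. Matched to the genome after their values were seen, 225 reads of 30 sequences were pieces of tRNA that end in CCA, a triplet that these tRNA genes do not encode and that the CCA-adding enzyme puts on tRNAs. A further 21 reads were tRNA pieces without CCA, 258 were ribosomal RNA, 38 came from other genes, 35 from places with no annotated gene on that strand and 58 started with the adapter. The other 540 had no exact match. The commonest tRNA pieces, the commonest piece of 18S ribosomal RNA and that of 5S ribosomal RNA are printed with the unencoded CCA in capitals.
3′ part of tRNA-Glu: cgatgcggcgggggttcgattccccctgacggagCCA
3′ part of tRNA-Pro: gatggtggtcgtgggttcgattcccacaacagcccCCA
3′ part of tRNA-His: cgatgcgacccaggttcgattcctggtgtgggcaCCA
18S ribosomal RNA: gaattagggttcgattccggagagg
5S ribosomal RNA: aacatgggaatccggggtgctgtaggctt
The tRNA-Glu piece matches 6 places in ASM294v3, among them I:3765434-3765467 on the minus strand, the tRNA-Pro piece 6, among them I:1449398-1449432 on the minus strand, and the tRNA-His piece 4, among them II:464276-464309 on the plus strand. The 18S piece matches 5 places, among them III:999-1023 on the minus strand, and the 5S piece 17, among them I:1563566-1563594 on the plus strand.

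The tRNA-Glu piece had 39 reads in cid14Δ and 11 in wt, 8 in cid14Δmpn1Δ and 5 in mpn1Δ, and 30 in rrp6Δ without PNK and 6 with it. All tRNA pieces together had 76 reads in cid14Δ (169 per 1000000 reads) and 25 in wt (29.1), 19 in cid14Δmpn1Δ (43.2) and 22 in mpn1Δ (18.98), and 53 in rrp6Δ without PNK (81.6) and 18 with it (25.5). They had 1, 4 and 3 reads in cid11Δ, cid12Δ and cid16Δ, 15 in wt without PNK and 0 in each file from tagged strains. As shares of reads, C, CA and CCA were also highest in cid14Δ and in rrp6Δ without PNK, at 2682 and 1466 per 1000000 reads, against 1042 in wt. Per 1000 bare ends C alone had 22.4 reads in cid14Δ, 31.6 in rrp6Δ without PNK, 32.8 in mpn1Δrrp6Δ and 24.1 in wt. CA had 11.9, 10.7, 5.25 and 5.54 in the same order. In mpn1Δrrp6Δ tRNA pieces had 13.2 per 1000000 reads. Whether tRNA pieces and C tails go together was not tested. The 18S piece had 4 reads in cid14Δ, 8 in rrp6Δ, 8 in rrp6Δ without PNK and 22 in wt, and none elsewhere. The 5S piece had 64 reads in tagged and 1 in endogenous U6 of mpn1Δ tU6-C36A, and none elsewhere.

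In strains with tagged U6 the commonest A-first mixed end held 15.8% to 74.5% of its class in a file, against 7.69% to 16.1% in untagged libraries. In tagged U6 of tU6-wt the end AATAAAATT had 7709 reads, 74.5% of its A-first mixed class, and in endogenous U6 of the same strain it had 136. The end AAAAAAAATAAAT had 123 reads in tagged and 2198 in endogenous U6 of tU6-wt, 67.4% of the class in endogenous U6. Neither sequence had a read in tU6-C36A or the mpn1Δ tagged strains. In untagged libraries the first had 3 reads in cid12Δ and 2 in wt without PNK, and the second had none. A further end, AATTT, had 52 reads in tagged and 659 in endogenous U6 of tU6-wt, where it took 0.116% of reads. In tagged U6 of tU6-C36A the commonest end of As alone had 9 As and 1580 reads, and tails of 5 or more As made up 89.4% of the class, against 15.4% in tagged U6 of tU6-wt. In tagged U6 of tU6-wt the commonest was AAA, with 1198 reads, against 0 in tagged U6 of tU6-C36A. In endogenous U6 of mpn1Δ tU6wt 175 of 176 reads were a single A, and in that of tU6-wt 283 of 328 were AA.

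C36A in tagged U6 went with a higher share of ends of As alone, 0.499% in tU6-C36A against 0.198% in tU6-wt (2.51-fold), and without mpn1 0.0222% in mpn1Δ tU6-C36A against 0.00252% in mpn1Δ tU6wt (8.83-fold, on 224 and 24 reads). A-first mixed ends took 0.236% in tU6-C36A and 0.852% in tU6-wt with mpn1, and 0.0465% in mpn1Δ tU6-C36A and 0.0295% in mpn1Δ tU6wt without it. In tagged U6 of tU6-wt the end AATAAAATT alone took 0.634%, against 0 reads in tU6-C36A. AAAAAAT had 396 reads in tagged U6 of tU6-C36A and 0 in tU6-wt, and the 10-base run of As had 421 and 2. The 6-base run of As had 418 and 13. Of 23 members compared between tagged U6 of tU6-C36A and of tU6-wt, 10 were at least 2-fold higher and 9 lower, beside 50% and 43.8% of all 226 ends.

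Tagged and endogenous U6 of 1 strain also differed. Ends of As alone took 0.0222% in tagged and 0.00118% in endogenous U6 of mpn1Δ tU6-C36A, 0.00252% and 0.0431% in mpn1Δ tU6wt, 0.499% and 0.0115% in tU6-C36A, and 0.198% and 0.0580% in tU6-wt. They were higher in tagged U6 in 3 of 4 strains (mean log2 1.84 ± 4.24, SD, n = 4, two-sided exact sign-flip p = 0.375, adjusted 0.625). A-first mixed ends were higher in tagged U6 in 4 of 4 strains (1.21 ± 1.34) and so were ends that start with C, G or N (1.51 ± 0.52). Each had an exact p of 0.125, the smallest that 4 pairs can give, and an adjusted p of 0.3125. The ratio of ends of As alone to bare ends was higher in 2 of 4 strains and had an exact p of 1. Without the tU6-C36A strain the mean for ends of As alone was 0.64 and that for A-first mixed ends 0.57, and without mpn1Δ tU6wt the mean for ends of As alone was 3.82.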

How the data were processed

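The 15 samples were 3′ RACE libraries of U6, made per the labels' protocols from 3 µg of hot-phenol RNA ligated to 120 pmol of adapter. The deposited files list read counts per distinct end sequence, and per the submitters' processing notes CASAVA 1.8.2 and cutadapt were used. How reads of tagged and endogenous U6 were split is not stated there, nor is a build. Which file of a tagged strain holds tagged U6 was taken from its name. That the line with no sequence holds ends with no base past the body is an assumption that was not checked. Shares are of reads with an end sequence, and ratios are to bare ends.

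Values were computed in Python 3.11.15 with SciPy 1.17.1 and NumPy 2.4.6 and plotted with Matplotlib 3.10.9. Single comparisons of distinct ends took those with a mean of at least 50 per 1000000 reads and a limit of 2-fold. The text names the 3 commonest ends of each class, those of at least 0.05% in any file, and the 2 members furthest up and down in each comparison. Tests were exact sign-flip tests over pairs and exact permutation tests on log2 values, with Benjamini-Hochberg adjustment over 5 outcomes. Alternatives changed the read minimum, the denominator, the fold limit, the tails counted and the libraries used. The calculations were tested on simulated data. The members and lists were chosen with earlier results of these data known. The tails of As and Gs, As then Us, C, CA and CCA, tails of 5 or more As and the match of long ends were chosen after their values were seen.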

Additional observations from a re-analysis of the deposited data

Results flagged for a closer look

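In 20 sets of 4 to 8 libraries or files, 3 values stood far from the rest of their set, where chance flags about 1 in 20. Ends of As alone took 0.00118% of reads (7 reads) in endogenous U6 of mpn1Δ tU6-C36A, far below the other libraries without mpn1. Tagged U6 of mpn1Δ tU6wt had 2.85 ends of As alone per 1000 bare ends, far below the other tagged U6 files. A-first mixed ends took 0.576% of reads in endogenous U6 of tU6-wt, far above endogenous U6 of the other tagged strains.

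In 40 pairs of contrasts, 2 pairs went in opposite directions by at least 1.5-fold each, with 1 library in every group, so that the difference was not tested. In tagged U6, C36A over wild type gave a log2 difference in A-first mixed ends of -1.85 with mpn1 and 0.66 without it. With mpn1, the end AATAAAATT alone held 7709 of the 10353 such reads in tU6-wt and 0 reads in tU6-C36A. Leaving out PNK gave a log2 difference in ends that start with C, G or N of -0.87 in wt and 0.70 in rrp6Δ. The wt library without PNK lies outside the no-N set, so PNK and set cannot be told apart in wt. Both rrp6Δ libraries belong to the no-N set.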

How the results depend on the processing

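Libraries could not be paired by replicate, because the labels give no replicate numbers to use as a block. The pairs tested here are strains matched by genotype, or tagged and endogenous U6 of 1 strain. Of 443 alternatives to 77 results, 360 were counted as unchanged. A single comparison that stayed within the 2-fold limit was counted so even where its sign turned. Ends of As alone took 0.171% in cid14Δ and 0.163% in wt, and A-first mixed ends 0.0611% and 0.0744%. Adding the mixed ends turned that order, and no reversal was counted. For tests over 5 or 4 pairs the smallest p is 0.0625 or 0.125, so their side of 0.05 was fixed beforehand. Values below are log2 differences unless said otherwise, and the cause of each change was not tested. Depth limits ends of a few reads, and intervals cover counting error only.

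Over the 5 mpn1 pairs the ratio of ends of As alone to bare ends was -0.026 (exact p = 0.9375) with ends of at least 10 reads and -1.61 (exact p = 0.4375) with tails of 2 or more As. In endogenous U6 of mpn1Δ tU6-C36A each of these settings left at most 1 read. Leaving out 1 pair gave -1.54 to -0.79 for ends of As alone, 0.01 to 0.53 for the ratio, -1.48 to -0.46 for A-first mixed ends, -1.08 to -0.59 for C, G or N first and -1.58 to -1.29 for bare ends. Between libraries without and with mpn1, leaving out 1 library gave -1.58 to 0.15, -1.70 to 0.068, -1.47 to -0.64, -0.49 to 0.54 and -0.48 to 0.56 for the same outcomes in that order. The ratio was 0.54 within 6 PNK-treated libraries of the no-N set. Without double deletions A-first mixed ends were at -1.54 (exact p = 0.0364) and C, G or N first at -0.99. The last was also -0.58 with ends of at least 10 reads, -1.26 within those 6 libraries and -0.015 within tagged strains. For tagged over endogenous U6 the ratio ran over -0.64 to 3.57 when 1 strain was left out.

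With each end of at least 2 reads counted once, ends of As alone were at -0.66 in mpn1Δ over wt, -0.46 in cid11Δ, -0.95 in cid16Δ and -0.13 in wt without PNK. A-first mixed ends were then at 0.77 in rrp6Δ and -1.93 in cid12Δ, and C, G or N first at -0.57 in mpn1Δ and 0.88 in cid14Δmpn1Δ over mpn1Δ. With all reads as denominator ends of As alone in mpn1Δ were at -0.98. With tails of 2 or more As they were at -0.92 in mpn1Δ, -2.77 in cid14Δ, -0.68 in cid12Δ, -0.60 in cid16Δ, 1.09 in mpn1Δrrp6Δ over mpn1Δ (ratio 1.13) and -3.49 in cid14Δmpn1Δ over mpn1Δ. With A-first mixed ends added they were at -0.85 in mpn1Δ, -0.75 in cid16Δ and 1.21 in mpn1Δrrp6Δ over mpn1Δ (ratio 1.24), and the ratio in rrp6Δ was 1.25. A limit of 1.5-fold was passed by the ratio in mpn1Δ (0.71), rrp6Δ (0.64) and mpn1Δrrp6Δ over mpn1Δ (0.85), by ends of As alone in mpn1Δrrp6Δ over mpn1Δ (0.82) and in rrp6Δ without PNK (0.59), and by C, G or N first without PNK in wt (-0.87) and rrp6Δ (0.70). Against wt without PNK, a comparison added after seeing the data, A-first mixed ends were at -2.38 in cid11Δ, -2.71 in cid12Δ and -2.14 in cid16Δ, and the ratio in cid16Δ at 0.88. With ends of at least 10 reads, C, G or N first was at -1.08 in wt without PNK and A-first mixed ends at -1.02 in cid14Δmpn1Δ over mpn1Δ.

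With a minimum of 200 in place of 50 per 1000000 reads, the distinct ends higher and lower numbered 25 and 18 in mpn1Δ (in place of 48 and 36), 22 and 2 in rrp6Δ (41 and 9), 13 and 2 in cid14Δ (27 and 15), 0 and 26 in cid11Δ (6 and 54), 2 and 22 in cid12Δ (22 and 44) and 0 and 28 in cid16Δ (8 and 54). They numbered 34 and 9 in wt without PNK (106 and 20), 2 and 4 in rrp6Δ without PNK (20 and 7), 4 and 0 in mpn1Δrrp6Δ over mpn1Δ (16 and 5), 11 and 8 in cid14Δmpn1Δ over mpn1Δ (21 and 22) and 58 and 41 in tagged U6 with C36A (113 and 99).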

Other observations

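The longest stretch shared by the 3 tRNA pieces and the 18S piece printed above had 11 letters, GGTTCGATTCC, and was looked for after the ends were seen. It stood in 42 of 620 ends of 18 bases or more (6.77%) and in 273 of their 1175 reads (23.2%). In the ASM294v3 annotation the stretch stood in 38 of 196 tRNA genes (19.4%) and in 5 of 5 genes of 18S ribosomal RNA. It is not in the printed 5S piece. Of the ends with it, 30 ends with 88 reads were not exact matches to a tRNA, among them the printed 18S piece with 42 reads.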
